A study of Mus musculus with 6 samples.

Results

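B lineage and plasma cell genes were followed in bone marrow of anemic, erythropoietin-deficient mice at 6 h after recombinant human erythropoietin (rHuEPO). The set was a list of 39 genes by name, each represented by the brightest probe whose accession maps to it in RefSeq. Of the 39 genes 37 had a matched probe, and 35 were bright enough to be tested among 14853 genes in all. That total counts each accession without a RefSeq gene name as a gene. Igll1 and Bach2 had no matched probe. Rag2 and Tnfrsf13b were too dim on each of the 6 arrays to be called well above background, and neither has a level here. The genes were divided by role into 12 early B lineage genes (10 tested), 12 B cell receptor and pan-B genes (11 tested), 7 mature B cell genes (7 tested) and 8 plasma cell genes (7 tested).

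Bone marrow cells of ISAM mice, genotype Epo-/-::3.3K-Epo3'-Tg458 on a mixed strain background, were profiled on 6 one-colour Agilent arrays, 1 per sample. The treated arm held 3 samples, taken 6 h after an intraperitoneal dose of 3000 U/kg rHuEPO. The control arm held 2 samples taken 6 h after phosphate-buffered saline (PBS) and 1 untreated sample. Every group carried the Epo deletion and the transgene, and all mice were male and 10 weeks old. ISAM mice depend on the transgene for their erythropoietin and are anemic as adults, so the controls are themselves erythropoietin-deficient marrow and no wild-type marrow was compared. Since the labels number the samples but name no separate animals, the p-values cover the spread among these samples alone, and the small number of arrays limits the precision.

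B lymphocytes are made in the marrow throughout life. Progenitors that respond to interleukin 7 switch on the transcription factors Ebf1 and Pax5, cut and join their immunoglobulin genes with the Rag1 and Rag2 recombinase, and carry a pre-B cell receptor built with the surrogate light chain proteins of the Vpreb and Igll1 genes. Later cells show a complete receptor that signals through Cd79a and Cd79b, and leave the marrow. Mature B cells bear CD20, and some cells of the lineage return to the marrow as antibody-secreting plasma cells driven by Irf4, Prdm1 and Xbp1.

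Windows of 250 bases before the start site were available in the RefSeq table (GRCm38.p6) for 33 of the 39 genes. The octamer ATTTGCAT, the site of octamer factors such as Pou2f2, was searched on both strands and occurred in 2 of the 33 genes (6.06%), against 1.81% of 27025 genes in the table. The letters CCCNNGGG, a core recognised by Ebf1, occurred in 5 of the 33 (15.2%), against 13.4% of all genes. Only the windows with the octamer are shown. Both genes had PBS replicate 1 lowest and PBS replicate 2 highest, but so did most of the list. Bank1 and Spib, whose windows hold CCCNNGGG, are among those with the same order. Cd22 and Sdc1, whose windows also hold it, had PBS replicate 1 lowest but the untreated array highest. Igll1, the remaining gene with that motif, had no matched probe. A link between either motif and the order of arrays was not tested. The octamer is in capitals and begins 45 bases before the Vpreb3 start and 130 bases before the Blnk start.
Vpreb3 (chr10:75948050-75948299, plus strand): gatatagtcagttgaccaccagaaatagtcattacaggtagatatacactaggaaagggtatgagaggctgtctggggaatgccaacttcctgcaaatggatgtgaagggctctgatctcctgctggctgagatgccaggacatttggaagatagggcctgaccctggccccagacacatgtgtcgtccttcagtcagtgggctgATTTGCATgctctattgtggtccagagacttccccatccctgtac
Blnk (chr19:40994222-40994471, minus strand): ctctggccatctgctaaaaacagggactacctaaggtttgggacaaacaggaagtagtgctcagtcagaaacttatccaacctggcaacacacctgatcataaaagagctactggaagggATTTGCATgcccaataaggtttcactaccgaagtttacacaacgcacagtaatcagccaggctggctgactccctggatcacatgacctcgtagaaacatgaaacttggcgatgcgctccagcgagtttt

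Levels are given on the log2 scale after subtracting, per array, the 75th percentile of log2 processed signals, and they compare 1 gene between arrays, not genes with each other. The 75th percentile ranged from 220.7 to 264.0 signal units over the arrays, and the share of gene spots called well above background from 46.2% to 46.6% after rHuEPO, against 48.6% to 50.5% in controls. Slide 1 held rHuEPO replicate 1 and the untreated sample, and slide 2 held rHuEPO replicates 2 and 3 and both PBS samples. Of the 35 tested genes 32 were well above background on all 6 arrays. Pax5 was not on rHuEPO replicates 2 and 3 and PBS replicate 1, Irf4 was not on PBS replicate 1, and Prdm1 was not on rHuEPO replicate 3.

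The question was whether B lineage transcripts had changed by 6 h, and no change was detected. None of the 35 genes passed limma's test of the 3 rHuEPO arrays against the 3 control arrays with Benjamini-Hochberg adjustment, where 0.0673% of all genes did. The adjusted p of each was 1.00, and none had an unadjusted p under 0.05, against 4.96% of all genes. The median difference, rHuEPO minus control, was -0.11 over the 35 genes, with 14 above 0 and 21 below, against -0.015 over all genes, of which 47.3% were above and 52.7% below. The differences ran from -0.78 for Rag1 to 0.62 for Fkbp11. The arms overlapped for each of the 35, while 5.01% of all genes had the rHuEPO arrays entirely higher and 5.39% entirely lower.

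What the list did show was an uneven control arm. The range over the 3 control arrays exceeded the size of the rHuEPO difference for all 35 genes, against 88.2% of all genes. The median control range was 1.95 log2 units, against a median range of 0.53 over the 3 rHuEPO arrays, and 33 of the 35 genes varied more among controls, against 58.3% of all genes. For 17 of the 35 genes the controls spanned at least 2 log2 units, against 2.34% of all genes. PBS replicate 1 was the lowest of the 6 arrays for 29 of the 35 genes, against 16.1% of all genes. PBS replicate 2 was the highest for 24 of the 35, against 2211 of all 14853 genes. The rHuEPO arrays lay between the control extremes for 29 of the 35 genes, against 24.4% of all genes. Over the 6 arrays the median correlation between pairs of the 35 genes was 0.83. These counts therefore largely repeat the same differences between arrays and are not separate observations. In whole marrow, fewer cells of a type and less RNA per cell cannot be told apart.

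**Figure D1:**
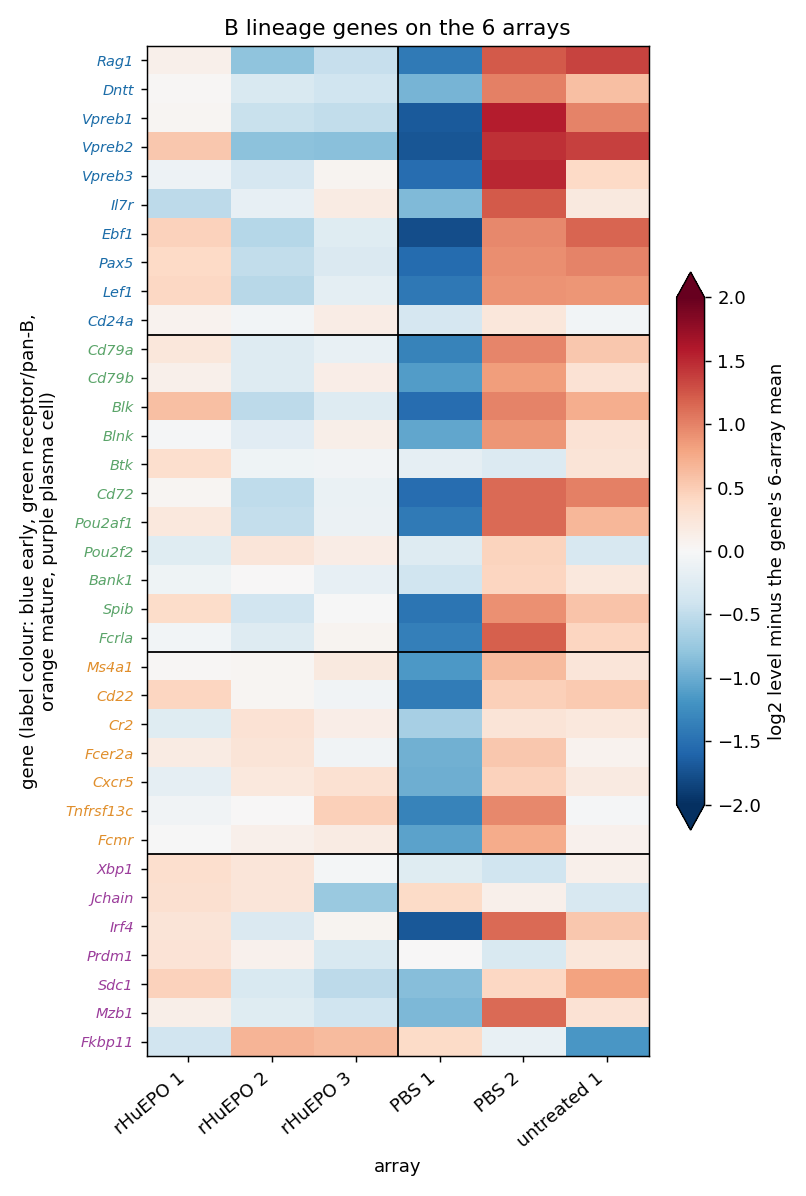
Level of each of the 35 tested genes (rows, coloured by role) on each array (columns, rHuEPO left of control), as log2 level minus the gene's mean over the 6 arrays. The column of PBS replicate 1 is the lowest for 29 of the 35 genes, and the exceptions lie mostly among the plasma cell genes.

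Among the early genes, those of the pre-B cell receptor varied the most. Vpreb1, a surrogate light chain component, stood at 3.48, 3.00 and 2.96 on the rHuEPO arrays, against 1.77 and 5.02 on PBS replicates 1 and 2 and 4.43 on the untreated array. The rHuEPO arrays were close together, above PBS replicate 1 and below the other controls, and the 3 controls spanned 9.52-fold from PBS replicate 1 to PBS replicate 2. The mean was 3.15 ± 0.29 after rHuEPO and 3.74 ± 1.73 in controls (SD, n = 3 each), a difference of -0.59 ± 0.77 (SE, limma adjusted p = 1.00). Vpreb2, its close paralog, differed by -0.74 ± 0.86 and had a control range of 3.18; the pair are so alike that a probe for 1 may also bind the other, which was not tested. Vpreb3, an endoplasmic reticulum protein of pre-B cells whose octamer window is printed above, had levels of 5.45, 5.22 and 5.61 after rHuEPO, against 4.04 and 7.07 on PBS replicates 1 and 2 and 5.96 untreated. Its difference was -0.26 ± 0.68 (SE).

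The recombination genes also had PBS replicate 1 as their lowest array. Rag1, the catalytic subunit of the recombinase, had levels of -0.60, -1.51 and -1.16 after rHuEPO, against -2.12 and 0.53 on PBS replicates 1 and 2 and 0.65 untreated. Again the rHuEPO arrays lay above PBS replicate 1 and below both other controls. Its difference of -0.78 ± 0.71 (SE) was the lowest of the list. Dntt, the polymerase that adds untemplated bases at the joins, had levels of 4.44, 4.11 and 4.01 after rHuEPO, against 3.48 and 5.41 on PBS replicates 1 and 2 and 5.02 untreated, a difference of -0.45 ± 0.47 (SE).

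The lineage factors were as uneven. Ebf1, which commits progenitors to the B lineage, read -1.02, -2.05 and -1.73 after rHuEPO, against -3.26 and -0.53 on PBS replicates 1 and 2 and -0.31 untreated, and differed by -0.23 ± 0.76 (SE). Pax5, which maintains B cell identity, differed by -0.26 ± 0.67, and 3 of its 6 readings were not well above background. Lef1, a factor of early B and T cells, differed by -0.23 ± 0.63. For all 3 factors PBS replicate 1 was the lowest array. Il7r, the interleukin 7 receptor chain that early T cells and other lymphocytes also use, read 0.73, 1.08 and 1.41 after rHuEPO, against 0.36 and 2.47 on PBS replicates 1 and 2 and 1.44 untreated. Cd24a, a surface protein that erythroblasts and granulocyte precursors also carry, was the steady member of the early group, with a control range of 0.56 and a difference of 0.11 ± 0.20 (SE). Over the 10 early genes 9 differences were below 0 and the median was -0.31, but without PBS replicate 2 the median was 0.15 with 7 above 0.

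The B cell receptor and pan-B genes had 9 of 11 differences below 0 and a median of -0.11, which without PBS replicate 2 became 0.34 with 11 of 11 above 0. Cd79a and Cd79b encode the signalling chains of the receptor. Cd79b read 5.74, 5.38 and 5.78 after rHuEPO, against 4.53 and 6.48 on PBS replicates 1 and 2 and 5.92 untreated, so the arms overlapped fully and differed by -0.01 ± 0.47 (SE). Cd79a differed by -0.11 ± 0.56 with a control range of 2.31. Cd72, a coreceptor that restrains signalling, read 2.66, 2.11 and 2.49 after rHuEPO, against 1.10 and 3.75 on PBS replicates 1 and 2 and 3.63 untreated, a difference of -0.41 ± 0.67 (SE). It had the lowest difference of the group, and its rHuEPO arrays lay below 2 of the 3 controls.

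Most adaptors and factors of the group had PBS replicate 1 lowest and PBS replicate 2 highest, Btk and Pou2f2 excepted. Pou2af1, the octamer coactivator, read 5.44, 4.76 and 5.11 after rHuEPO, against 3.82 and 6.36 on PBS replicates 1 and 2 and 5.90 untreated, and differed by -0.26 ± 0.62 (SE). Blnk, the adaptor that links the receptor to its downstream enzymes, differed by -0.09 ± 0.46 with a control range of 1.93. Differences were -0.12 ± 0.66 for the Src family kinase Blk, -0.02 ± 0.59 for the Ets factor Spib and -0.17 ± 0.59 for the Fc receptor-like gene Fcrla, with control ranges between 2.38 and 2.56. Another 3 genes had control ranges under 1: Btk, the kinase also used by myeloid cells, at 0.53, the octamer factor Pou2f2 at 0.76, and the scaffold gene Bank1 at 0.82. Btk read 3.69, 3.27 and 3.29 after rHuEPO, against 3.17 and 3.09 on PBS replicates 1 and 2 and 3.62 untreated, a difference of 0.12 ± 0.22 (SE).

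All 7 mature B cell genes had differences above 0, with a median of 0.22 and a range from 0.13 to 0.27, and none passed the test. With array weights their median was -0.11, with 5 of the 7 below 0, and with the replicate number as a block it was 0.011. The weights were uneven, from 0.3825 for rHuEPO replicate 1 to 4.335 for rHuEPO replicate 2. Ms4a1, which encodes CD20, read 3.40, 3.42 and 3.58 after rHuEPO, against 2.22 and 4.0 on PBS replicates 1 and 2 and 3.62 untreated. The rHuEPO arrays were within 0.17 of each other and inside the control range. Its mean was 3.46 ± 0.10 after rHuEPO and 3.28 ± 0.94 in controls (SD, n = 3 each), a difference of 0.18 ± 0.43 (SE, limma adjusted p = 1.00). Cd22, an inhibitory coreceptor, read 1.25, 0.86 and 0.75 after rHuEPO, against -0.58 and 1.30 on PBS replicates 1 and 2 and 1.35 untreated, and differed by 0.26 ± 0.51 (SE). Fcmr, the receptor for IgM, read 3.91, 4.03 and 4.10 after rHuEPO, against 2.85 and 4.66 on PBS replicates 1 and 2 and 4.02 untreated, and differed by 0.17 ± 0.42 (SE). In both genes PBS replicate 1 was the lone low control. Tnfrsf13c, the receptor for the survival factor BAFF, differed by 0.27 ± 0.53, the IgE receptor gene Fcer2a by 0.23 ± 0.37, the follicle homing receptor Cxcr5 by 0.22 ± 0.38 and the complement receptor Cr2 by 0.13 ± 0.29. PBS replicate 1 was the lowest of the 6 arrays for all 7 genes.

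The plasma cell genes did not move together. Of 7 tested, 4 differences were above 0 and 3 below, with a median of 0.016, and PBS replicate 1 was the lowest array for 3. Those 3 were Irf4 (control range 2.83), Sdc1 (1.66) and Mzb1 (2.03). Earlier B cells or other marrow cells also use these genes, and a link to the order of arrays was not tested. Mzb1, an endoplasmic reticulum cochaperone, read 2.98, 2.62 and 2.46 after rHuEPO, against 1.97 and 4.0 on PBS replicates 1 and 2 and 3.16 untreated, a difference of -0.35 ± 0.48 (SE). Irf4, a factor needed to become a plasma cell, differed by 0.02 ± 0.67, and Sdc1, which encodes the plasma cell surface marker CD138, by -0.25 ± 0.46.

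The other 4 plasma cell genes had no common lowest array. Jchain, the chain that joins IgM and IgA into polymers, read 4.89, 4.81 and 3.82 after rHuEPO, against 4.95 and 4.67 on PBS replicates 1 and 2 and 4.24 untreated. Here PBS replicate 1 was the highest array and rHuEPO replicate 3 the lowest, and the difference was -0.11 ± 0.33 (SE). Xbp1, the factor that expands the secretory apparatus and that many secreting cells use, read 2.57, 2.48 and 2.20 after rHuEPO, against 1.99 and 1.85 on PBS replicates 1 and 2 and 2.34 untreated. Its difference of 0.36 ± 0.20 had the smallest unadjusted p of the list, 0.123 (limma adjusted p = 1.00). Fkbp11, a prolyl isomerase of the endoplasmic reticulum, read 1.07, 2.12 and 2.08 after rHuEPO, against 1.82 and 1.29 on PBS replicates 1 and 2 and 0.29 untreated. Its arrays on slide 1 were the lowest of each arm, and the difference was 0.62 ± 0.45 (SE). Prdm1, the repressor that ends the B cell programme, differed by 0.04 ± 0.23 and had a control range of 0.53.

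Early, mature and plasma cell genes were then set side by side through each array's median deviation from the genes' 6-array means. For the early genes this was 0.088, -0.47 and -0.27 on the rHuEPO arrays, against -1.48 and 1.11 on PBS replicates 1 and 2 and 0.93 untreated. For the mature genes it was -0.015, 0.097 and 0.17 after rHuEPO, against -1.08 and 0.54 on PBS replicates 1 and 2 and 0.19 untreated. The plasma cell genes' median moved less, with 0.28, 0.083 and -0.31 after rHuEPO, against -0.24 and 0.11 on PBS replicates 1 and 2 and 0.23 untreated. Single plasma cell genes had a median control range of 1.54, against 1.78 for the mature and 2.64 for the early genes. Their control ranges ran from 0.50 to 2.83, and their arrays of high and low level differed from gene to gene. In both B cell groups PBS replicate 1 stood lowest and PBS replicate 2 highest. The early median minus the mature median was 0.10, -0.56 and -0.44 on the rHuEPO arrays, against -0.40 on PBS replicate 1, 0.57 on PBS replicate 2 and 0.74 untreated. PBS replicate 1 thus fell within the rHuEPO values on this measure, and the arms overlapped. The median rHuEPO difference was lower for the early than for the mature genes in the full comparison (early minus mature -0.52), and this gap lay between -0.80 and -0.40 over the other settings run, the 2 slides taken alone included. Several of these settings cannot move the gap by their construction and all share arrays, so their number says nothing about stability. The gap was not tested because the members were chosen with results known.

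**Figure D2:**
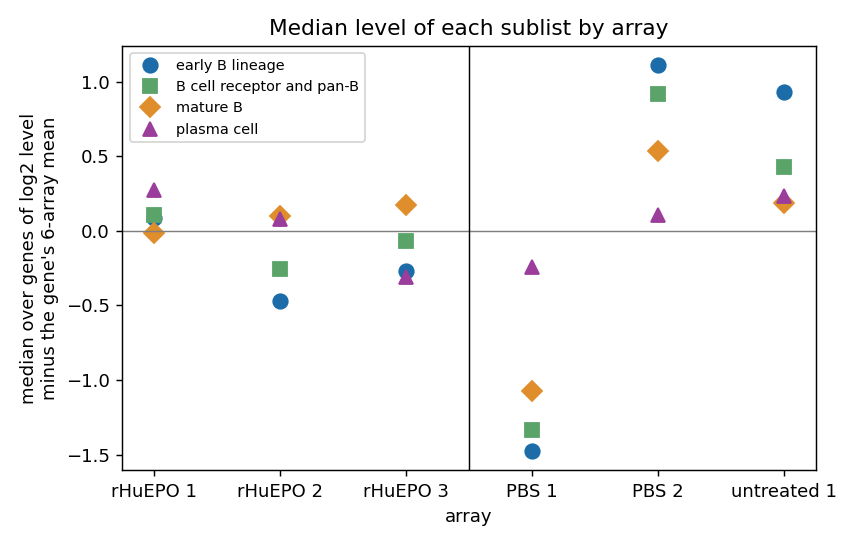
Median over the genes of each role (10 early, 11 receptor and pan-B, 7 mature, 7 plasma cell) of the log2 level minus the gene's 6-array mean, by array, with rHuEPO left of control. PBS replicate 1 is at -1.48 for early genes and -1.08 for mature genes, while the plasma cell points stay between -0.31 and 0.28.

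The controls themselves were compared next. The rHuEPO mean minus PBS replicate 1 had a median of 1.11 over the 35 genes, with 33 above 0. Minus PBS replicate 2 it was -0.93, with 4 above 0, and minus the untreated array -0.40, with 7 above 0. Of all 14853 genes 6016, 7168 and 8219 were above 0 in the same order. PBS replicates 1 and 2 carried the same treatment label and lay on the same slide. PBS replicate 1 minus PBS replicate 2 had a median of -1.95, with 30 of the 35 genes below 0, against 6918 of all 14853. The median was -2.56 for early, -2.31 for receptor and pan-B, -1.78 for mature and 0.15 for plasma cell genes. PBS replicate 1 minus the untreated array gave -2.42, -1.80, -1.17 and -0.35 for the same groups. Other marker lists moved with that array too. The median deviation of PBS replicate 1 was -0.55 for 12 erythroid markers, 9 of them lowest there, and -0.37 for 11 tested of 14 T and NK cell markers, 8 of them lowest there. It was 0.38 for 13 granulocyte markers and 0.31 for 10 tested of 11 monocyte and macrophage markers. Over the other 5 arrays these medians lay between -0.04 and 0.26 for erythroid, -0.08 and 0.30 for T and NK, -0.25 and 0.19 for granulocyte and -0.22 and 0.15 for monocyte and macrophage markers. For 7 plasmacytoid dendritic cell markers it was -0.01, and for 9 tested of 10 interferon response genes -0.37, where PBS replicate 1 did not stand apart. The interferon medians on the other arrays were 0.096, 1.09 and 0.37 after rHuEPO, against -0.20 on PBS replicate 2 and -0.57 untreated. The part of these lists in the low B lineage readings was not tested. With rHuEPO set against control no gene of these lists passed in the full comparison, although 5 of the 9 interferon response genes had rHuEPO arrays entirely higher than the controls, against 5.01% of all genes. With array weights 1 interferon response gene passed (limma adjusted p = 0.00763), where 0.182% of all genes did. That fit gave rHuEPO replicate 2, which had the highest interferon median, a weight of 4.335. The weights of rHuEPO replicates 1 and 3 were 0.3825 and 1.469. In the full comparison the median difference was 0.37 for erythroid, 0.089 for T and NK, -0.011 for granulocyte, 0.18 for monocyte and macrophage, 0.095 for plasmacytoid dendritic and 0.75 for interferon response genes.

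**Figure D3:**
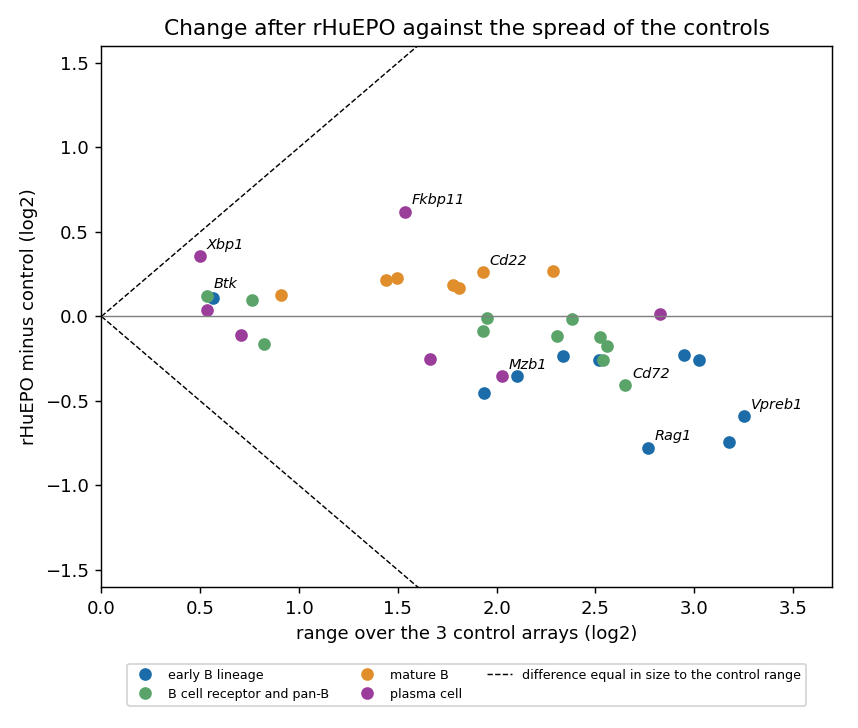
Difference rHuEPO minus control (vertical axis, log2) against the range over the 3 control arrays (horizontal axis, log2) for the 35 tested genes, coloured by role. All 35 points lie between the dashed lines, where the difference is smaller than the control range, and the early genes reach control ranges of 3.25.

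As planned, the comparison was also repeated without each array in turn. Without PBS replicate 1 the median difference of the 35 genes was -0.74, with 30 below 0, against 46.7% of all genes. No gene passed (smallest limma adjusted p = 0.468, where 0.00673% of all genes passed). At an unadjusted p under 0.05 it listed 17 of the 35, all lower, against 6.02% of all genes in either direction and 4.05% that were lower. Of the 17, 8 were early, 7 receptor and pan-B, 2 plasma cell and 0 mature genes. Since most of the listed genes moved together over the arrays, these counts are not of separate observations. Rag1 differed by -1.68 ± 0.29, Vpreb1 by -1.57 ± 0.27 and Cd72 by -1.27 ± 0.22 (SE, 3 against 2 arrays, limma adjusted p = 0.468, 0.468 and 0.471). The mature genes' median became -0.33, and all 7 turned from above to below 0. With slide as a block as well, a setting chosen after seeing the data, 23 of the 35 had an unadjusted p under 0.05, 22 lower and 1 higher, against 16.1% of all genes, 9.42% lower and 6.71% higher. No gene of the list passed there (smallest limma adjusted p = 0.181, where 0.0135% of all genes passed). Without PBS replicate 2 the direction turned, with a median of 0.25 and 29 of the 35 genes above 0, against 7281 of all 14853. Without the untreated array the list's median was 0.13. Leaving out rHuEPO replicate 1, 2 or 3 gave -0.18, 0.00049 and -0.049. The sign of the list's median therefore depended on which arrays were kept, and its size mostly on the PBS samples.

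**Figure D4:**
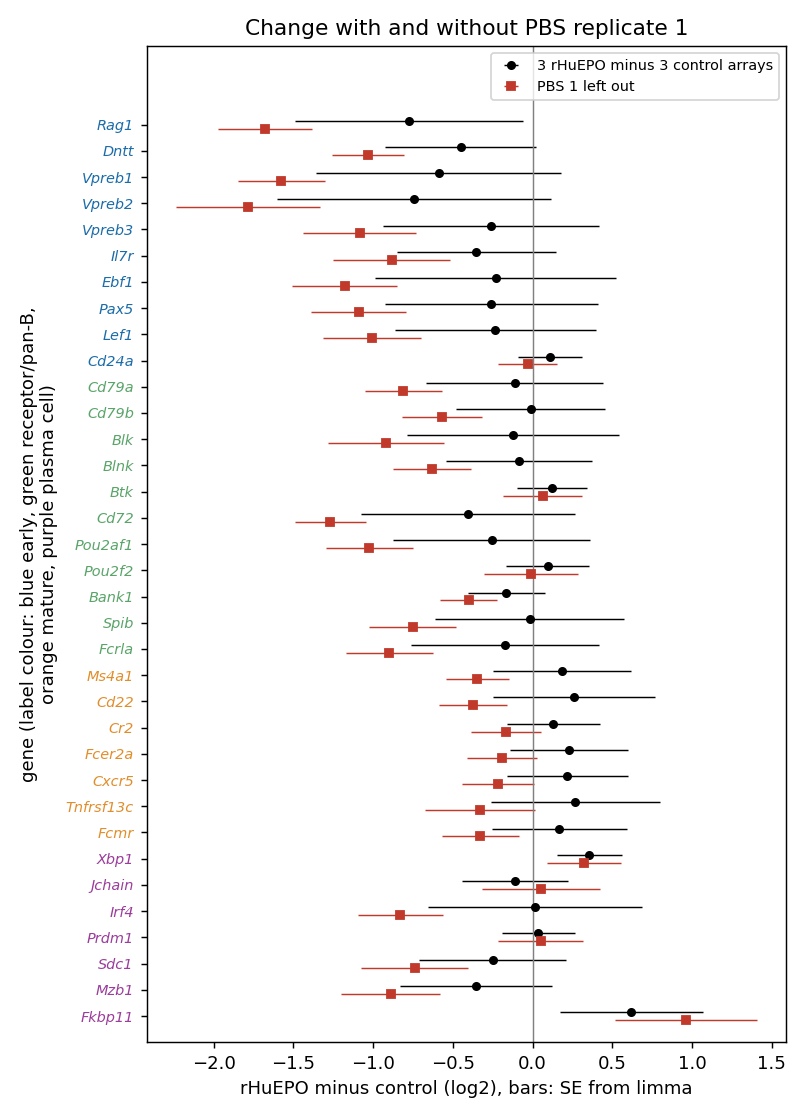
Difference rHuEPO minus control for the 35 tested genes (log2, bars are the SE from limma), with all 6 arrays (black circles) and with PBS replicate 1 left out (red squares). Early genes move to between -1.79 and -0.03 without that array, and the mature genes cross 0.

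Within slide 1, rHuEPO replicate 1 minus the untreated array had a median of -0.30, with 27 of 35 genes below 0. Of all 14853 genes 7317 were below 0 on that slide. The medians there were -0.64 for early, -0.30 for receptor and pan-B, -0.11 for mature and 0.045 for plasma cell genes. Within slide 2, rHuEPO replicates 2 and 3 minus the PBS samples had a median of 0.0064, with 17 below 0 and 18 above. There the medians were -0.15 for early, -0.016 for receptor and pan-B, 0.42 for mature and 0.031 for plasma cell genes. Slide 1 had the untreated sample as its control, while slide 2 held both PBS samples, the lowest and highest controls for most of the list. With slide as a block none of the 35 genes passed, against 0.0741% of all genes. Only Fkbp11 and Xbp1 had an unadjusted p under 0.05 there, against 11.3% of all genes and 5.62% that were higher, both higher, with limma adjusted p of 0.324 and 0.429.

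Set against the PBS samples alone, in a fit with 3 groups, none of the 35 genes passed, against 0.0202% of all genes. The median difference was 0.13 with 23 above 0, against 5949 of all 14853 genes. The untreated array minus the PBS samples had a median of 0.49, with 31 above 0, and 0 of 35 genes passed (0% of all genes). At an unadjusted p under 0.05 that fit listed 1 of the 35, Fkbp11, which was lower in the untreated sample (-1.27 ± 0.50, SE), against 5.41% of all genes and 3.66% that were lower. For the untreated array minus the PBS samples, 6063 of all 14853 genes were above 0. The untreated sample is on another slide than the PBS samples, so injection and slide cannot be told apart there. Between slides, in a fit with arm as a covariate, 1 of the 35 genes passed, against 10.6% of all genes and 7.18% that were higher. It was Fkbp11, higher on slide 2 by 1.15 ± 0.19 (SE, limma adjusted p = 0.0301).

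Further genes of the pathway outside the list had smaller median control ranges, 0.89 for B lineage regulators, 0.48 for B cell signalling and surface genes and 0.75 for secretory genes, against 0.55 over all genes. Of 14 further B lineage regulators, all tested, 0 passed, against 0.0673% of all genes, 11 differences were below 0 and the median was -0.22. Mef2c, a factor of lymphoid and myeloid progenitors, read 0.58, 0.66 and 0.62 after rHuEPO, against 1.03 and 1.16 on PBS replicates 1 and 2 and 1.07 untreated. Its arms did not overlap, and it differed by -0.47 ± 0.16 (SE, limma adjusted p = 0.856). Cd93, a surface protein of early B cells and of other marrow cells, differed by -0.44 ± 0.17 (SE, limma adjusted p = 0.926), also without overlap. These 2 of 14 were chosen by their small p, and 5.39% of all genes had the rHuEPO arrays entirely lower. Of 13 tested B cell signalling and surface genes 0 passed, 12 differences were below 0 and the median was -0.072. Over all genes 52.7% of differences were below 0. Siglecg was at -0.53 ± 0.43 and Cd37 at -0.18 ± 0.18 (SE). Of 14 secretory pathway genes 0 passed, with a median of 0.056. Hspa5, the main chaperone of the endoplasmic reticulum, was at 0.58 ± 0.35 and Tnfrsf17, the survival receptor of plasma cells, at -0.49 ± 0.39 (SE). PBS replicate 1 was the lowest array for 6 of the 14 regulators, 4 of the 13 signalling genes and 1 of the 14 secretory genes.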

How the data were processed

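Marrow RNA carried Cy3 label on 1-colour Agilent arrays, per the labels' protocols. Intensity values in the deposited scanner files come from Feature Extraction 10.7.3.1 with its background subtraction, per the file headers. A deposited table holds log2 values for which no source used here states the scaling. Against the scanner values its slopes were 0.9988 to 1.001, so it runs in the same direction, at a 75th percentile scale with each probe centred on its median. Its column medians were 0.1175, 0.01121 and 0.08684 (rHuEPO), -0.05714 and -0.0978 (PBS) and -0.1038 (untreated).

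Processed signals were put on the log2 scale and the 75th percentile of each array was subtracted. Flagged outliers and 1639 control spots were dropped, and no gene spot was saturated. A probe was tested if well above background on 3 or more of 6 arrays, and the brightest stood for its gene. RefSeq accessions (GRCm38.p6) named 64.8% of probes. The other probes kept their accession as the gene label, so the shares of all genes include unnamed labels, and a gene may have several. The array's own coordinates belong to another build and are not used here.

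Tests used limma 3.58.1 in R 4.3.3 (lmFit, eBayes, two-sided, Benjamini-Hochberg over all genes, threshold 0.05), tested on simulated data. The members and lists were chosen with earlier results of these data known. All members are named, with the 2 genes of smallest p from each further B lineage or secretory list. The same rule gives genes for the lists of other cell types, which are reported by counts and medians only. Alternatives were median and quantile scaling, normexp on median signals (offset 50), other filters, the deposited table, PBS as the only control, a robust intensity trend, averaging a gene's probes, blocks for slide or for replicate number, weighted arrays, and each array left out. Slide as a block without PBS replicate 1 was added after seeing the data. Some genes of these lists are not reported here.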

Additional observations from a re-analysis of the deposited data

How the results depend on the processing

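None of the 35 genes passed for rHuEPO against control under any alternative run. The median difference of the list ran from -0.74 to 0.25 and changed sign with normexp (0.06), against PBS alone (0.13) and without single arrays. Members whose difference changed sign numbered 15 with normexp, 11 against PBS alone, 11 without PBS replicate 1, 17 without PBS replicate 2, 7 with array weights and 5 with the replicate block. With array weights the list's median was -0.58, with 28 of the 35 below 0, against 7264 of all 14853 genes. The early genes' median was -0.91 there, with 10 of 10 below 0. At an unadjusted limma p under 0.05 that fit listed 7 of the 35, 5 lower and 2 higher, against 1687 of all 14853 genes. With the replicate number as a block the list's median was -0.13 and 0 members passed. Deviations from the arm means correlated at -0.375 for rHuEPO and PBS replicates 1, 0.634 for rHuEPO and untreated replicates 1, and 0.145 for rHuEPO and PBS replicates 2. Whether the numbers pair the samples cannot be told from these values. Deviations within an arm constrain each other, and the samples correlated at 0.634 also shared slide 1. Over all genes, 10 were called higher and 0 lower. The higher calls numbered 1 with normexp, 1 without a filter, 5 with probes well above background on all 6 arrays, 3 against PBS alone, 1 with the replicate block, 24 with array weights (and 3 lower), 2 with slide as a block without PBS replicate 1, and 1 to 6 with 1 array left out. Between slides quantile normalization called 2 members, Fkbp11 and Btk (lower on slide 2, at -0.65; limma adjusted p = 0.0361). The cause of these changes was not tested. Pax5, Irf4 and Prdm1 include readings not well above background, which limits the precision of their values.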

Other observations

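Further probes gave a second reading of some genes. There were 9 tested probes besides the brightest, for 8 of the genes, and all 9 had a difference of the same sign as the brightest probe. PBS replicate 1 was the lowest of the 6 arrays for 7 of the 9. Among the 7, a probe each of Cd22, Il7r and Dntt was well above background on only 3, 3 and 4 arrays. On PBS replicate 1 they read -4.62, -3.74 and -4.12, below the lowest level called well above background there, -3.73. Their readings on that array are therefore not resolved from background. The second Vpreb3 probe read 3.40, 2.61 and 3.11 after rHuEPO, against 1.36 and 4.60 on PBS replicates 1 and 2 and 3.85 untreated. The second Cd72 probe read 2.79, 1.85 and 2.06 after rHuEPO, against 0.57 and 3.38 on PBS replicates 1 and 2 and 3.20 untreated. The second Rag1 probe read -1.57, -1.59 and -2.30 after rHuEPO, against -3.01 and -1.18 on PBS replicates 1 and 2 and -0.75 untreated. The exceptions were a dim Bank1 probe and the second Jchain probe, which read 2.12, 2.46 and 1.44 after rHuEPO, against 2.42 and 2.27 on PBS replicates 1 and 2 and 1.55 untreated. Jchain thus had rHuEPO replicate 3 as its lowest array by both probes.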
